A study of Homo sapiens with 6 samples.

Results

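The unfolded protein response and the ATF4 stress response were examined in DCIS.COM cells through 38 named genes, taken by symbol from the 58676 genes of the deposited expression table. The 38 genes fall into 6 roles: chaperones and folding enzymes of the endoplasmic reticulum (ER), ER-associated degradation (ERAD), the stress sensors with XBP1, ATF4 with its regulators and targets, synthesis of serine, glycine and asparagine, and amino acid transport. All 38 were found, and 37 passed the filter of a mean of at least 0.5 FPKM (fragments divided by gene length and by the reads of the library) over the 6 libraries. ASNS was below it and was not tested. The study silenced BCL9, a transcriptional coactivator best known in Wnt and beta-catenin signalling, in DCIS.COM, an established human line used as a model of basal-type ductal carcinoma in situ. Both groups were transduced with the lentiviral vector PLKO.1, which carried a single shRNA against BCL9 in the BCL9 KD cells and a non-silencing shRNA in the NS control cells. RNA was sequenced from 3 cultures of each group. The labels call these biological replicates, and whether the cultures were transduced separately is not given in the sources used here, so p-values measure the spread between these cultures.

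Proteins that enter the ER are folded by chaperones, and misfolded ones are sent back to the cytosol for destruction by ERAD. When unfolded proteins build up, the membrane sensors IRE1 (encoded by ERN1), PERK (encoded by EIF2AK3) and ATF6 raise chaperone and ERAD genes through XBP1 and cleaved ATF6, while PERK phosphorylates eIF2alpha and so slows protein synthesis. The slowed synthesis favours translation of ATF4, which raises genes for amino acid supply, and the same branch can be entered through other eIF2alpha kinases without any ER stress. ATF4, XBP1 and ATF6 are controlled largely after transcription, by translation, splicing and cleavage, and none of these steps is measured by a gene's total RNA.

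The libraries held between 15222452 and 26949026 reads on genes, and replicates of a group correlated at 0.964 to 0.987 (Pearson, log2 values), a range that overlaps the 0.958 to 0.974 between groups. NS control replicate 3 was closer to each BCL9 KD library (0.970 to 0.974) than to NS control replicate 1 (0.964). BCL9 was at 6.25, 6.24 and 5.34 FPKM in the NS control libraries (replicates 1, 2 and 3, the order used throughout) and at 2.86, 2.78 and 2.59 FPKM in BCL9 KD (log2 fold change −0.99, adjusted p = 0.0077, or 0.059 to 0.070 without BCL9 KD replicate 2 or 3 or NS control replicate 2). NS control replicate 1 stood apart, in that the deviation of its log2 values from the mean of all libraries followed transcript GC content (r = 0.491 across genes, against −0.232 to 0.0476 in the other libraries). All 7 basal epithelial markers were present, with KRT17, KRT5 and ITGA6 at 329 FPKM or higher, KRT14 at 31.7 to 40.6, EGFR at 16.7 to 23.3, TP63 at 12.5 to 18.3 and KRT6A at only 1.42 to 2.33 FPKM. None was called, and the groups did not overlap for TP63 (0.27, adjusted p = 0.180) and EGFR (−0.26, adjusted p = 0.129). Of 5 luminal markers, GATA3 was at 7.08 to 9.28 FPKM, FOXA1 at 2.97 to 3.65 and KRT19 at 0.60 to 1.09, while ESR1 was at 0.098 FPKM or lower and PGR was listed at 0 in all 6 libraries. The leukocyte markers PTPRC, CD3E and CD68 were at 0.0583 FPKM or lower. Of the fibroblast markers, COL1A1 was at 0.48 to 0.67 FPKM and COL1A2, PDGFRB and DCN were at 0.103 FPKM or lower. Of the endothelial markers, VWF and CDH5 were at 0.0534 FPKM or lower, and PECAM1 was at 1.72 to 2.29 FPKM in NS control and 3.11 to 3.91 FPKM in BCL9 KD (0.61, adjusted p = 0.048, lost in 5 of the 6 fits that left out a library, all except NS control replicate 3).

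As a group, the 37 tested genes differed little between the cultures. SLC7A5, the light chain of the large neutral amino acid transporter LAT1, and VLDLR, a lipoprotein receptor induced by ATF4, were called lower in BCL9 KD, and no member was called higher. Both calls were lost in some of the alternative fits described below, and some members were called higher in others. Across all 13745 genes tested, 807 (5.87%) were called at an adjusted p under 0.05 (limma on log2(FPKM + 0.5), Benjamini-Hochberg over all tested genes), 407 (2.96%) of them higher and 400 (2.91%) lower. The 2 members called are 5.41% of the 37 tested, a share near that background. The median log2 fold change of the members was 0.03, against 0.04 for all tested genes, and single members ranged from −0.55 to 0.58. At an unadjusted p under 0.05 there were 8 members (21.6%), against 3775 genes (27.5%).

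The design bounded most members closely. The 95% interval of the log2 fold change lay within a 2-fold change in either direction for 35 of 37 members and within 1.5-fold for 30. Of all tested genes, 86.9% met the 2-fold bound and 59.8% the 1.5-fold bound. The values of the 3 NS control and 3 BCL9 KD libraries did not overlap for 8 members (21.6%), 4 higher (HSP90B1, MANF, ATF4 and CEBPG) and 4 lower (HYOU1, DNAJC3, VLDLR and SLC7A5). That share is below the 34.2% of all tested genes without overlap. The exact permutation test of a single gene in 3 against 3 libraries has a smallest two-sided p of 0.1. Every gene without overlap reaches that p by construction, so for these 8 members it is no further test. In bulk RNA, fewer expressing cells and less RNA per cell cannot be told apart.

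**Figure D1:**
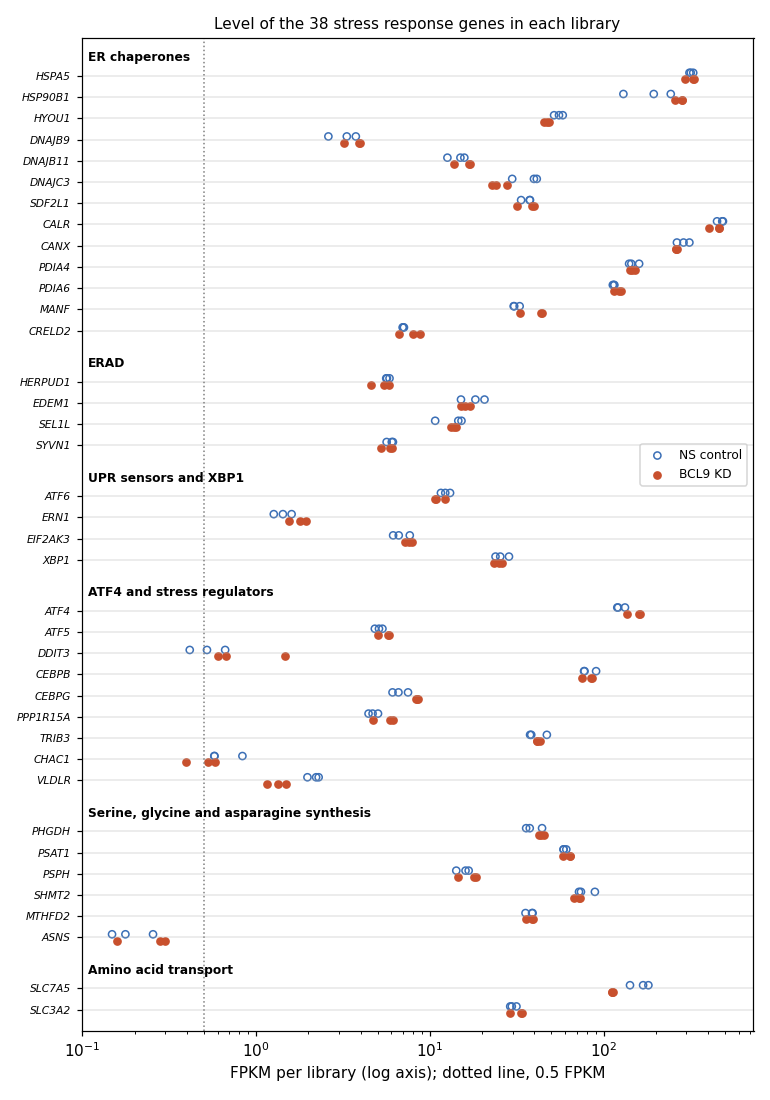
FPKM of the 38 genes in each library on a log axis, by role, with open circles for the 3 NS control and filled circles for the 3 BCL9 KD libraries. Levels span from ASNS, at 0.22 FPKM on average, to CALR at 458, and for most genes the circles of both groups lie over each other.

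**Figure D2:**
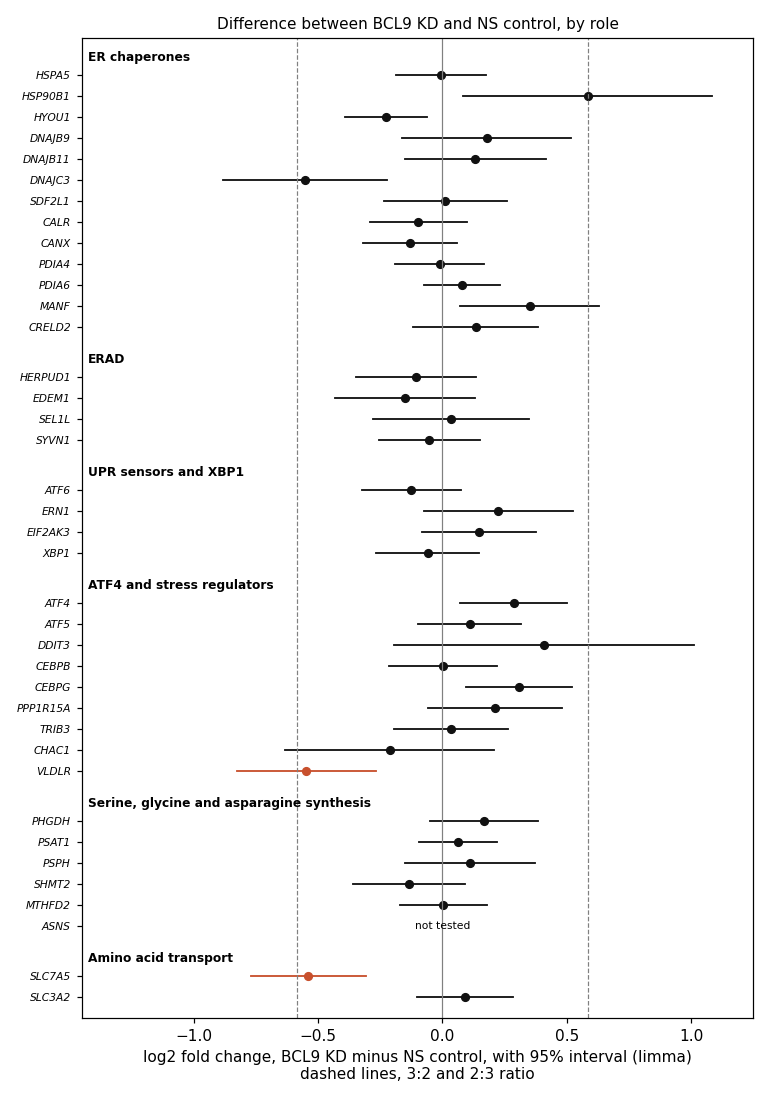
The log2 fold change (BCL9 KD minus NS control) of each tested member with its 95% interval from limma, by role. VLDLR and SLC7A5, in colour, are the only members called, and 30 of the 37 intervals lie inside the dashed lines at a 1.5-fold change in either direction.

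Several promoters of these genes carry the response elements through which ATF6, XBP1 and ATF4 act. The members were named as genes of these responses, so finding the elements among them is not separate evidence. RefSeq promoter windows (GRCh38.p14, 250 bases before to 50 after the start site) were matched for 36 of 38 members, all except PSPH and SHMT2. The ER stress response element ERSE was searched as CCAAT, 9 bases of any kind and CCACG on either strand. It was found in 7 members and in 0.0916% of the 27305 genes with a window. In the lines below each sequence runs 5′ to 3′ in the direction of its gene and the capitals mark the element, which on the opposite strand begins with CGTGG.
HSPA5 ERSE: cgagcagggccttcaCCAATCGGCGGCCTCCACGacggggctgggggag
CALR ERSE: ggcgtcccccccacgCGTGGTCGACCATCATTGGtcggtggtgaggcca
XBP1 ERSE: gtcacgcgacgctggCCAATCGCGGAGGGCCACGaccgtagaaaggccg
HSP90B1 ERSE, first: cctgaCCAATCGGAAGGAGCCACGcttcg
HSP90B1 ERSE, second: gggtgCGTGGTGCGGCGCGATTGGtgggt
The HSPA5 stretch lies on the minus strand at chr9:125241376-125241424, with the element ending 48 bases before the start site. The CALR stretch lies on the plus strand at chr19:12938369-12938417 and the XBP1 stretch on the minus strand at chr22:28800588-28800636. HSP90B1 carries 2 elements, in plus-strand stretches at chr12:103930211-103930239 and chr12:103930316-103930344, the first element on the strand of the gene and the second on the opposite strand, and both within the gene's span in the deposited table, which begins further upstream. The other members with the element were CANX, PDIA6 and CRELD2. The 7 members had log2 fold changes from −0.13 to 0.58 with a median of −0.005, and none was called.

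A related element, ERSE-II, and the amino acid response element bound by ATF4, here CARE, marked other members. ERSE-II was searched as ATTGG, any base and CCACG on either strand, and it was found in HERPUD1, HYOU1 and SDF2L1 among members and in 0.0696% of genes with a window. CARE was searched as TGATG, any base and AA, a short motif that 4.46% of genes held, and it was found in ASNS, CEBPG, CHAC1, HERPUD1 and SLC3A2. HYOU1 is shown for its pair of elements, HERPUD1 for holding both kinds, and CEBPG and CHAC1 as ATF4 targets with CARE on the strand of the gene and on the opposite strand.
HYOU1 ERSE-II, first: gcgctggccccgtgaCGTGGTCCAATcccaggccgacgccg
HYOU1 ERSE-II, second: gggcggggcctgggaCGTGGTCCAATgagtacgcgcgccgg
HERPUD1 ERSE-II: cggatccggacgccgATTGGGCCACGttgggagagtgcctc
HERPUD1 CARE: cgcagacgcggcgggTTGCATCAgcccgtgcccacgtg
CEBPG CARE: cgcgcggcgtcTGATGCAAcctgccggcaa
CHAC1 CARE: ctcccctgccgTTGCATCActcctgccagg
The HYOU1 stretches lie on the minus strand at chr11:119057365-119057405 and chr11:119057259-119057299, and those of HERPUD1 on the plus strand at chr16:56932010-56932050 and chr16:56931951-56931988. CEBPG and CHAC1 have theirs on the plus strand at chr19:33374060-33374089 and chr15:40953251-40953280. The fourth motif searched, the unfolded protein response element UPRE (TGACGTGG), was in 0.927% of genes and, among members, only in HYOU1, where it overlaps the first ERSE-II. The 13 tested members with ERSE, ERSE-II or CARE had a median log2 fold change of −0.005 and 0 calls, and the 22 with a window and none of these had a median of 0.05 and 2 calls. SLC7A5, VLDLR and DNAJC3 held none of the 4 motifs in the window. A match shows the letters only and not that a factor binds there. Absence of a match covers only this window and the exact letters searched, so elements elsewhere or with other letters would be missed.

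**Figure D3:**
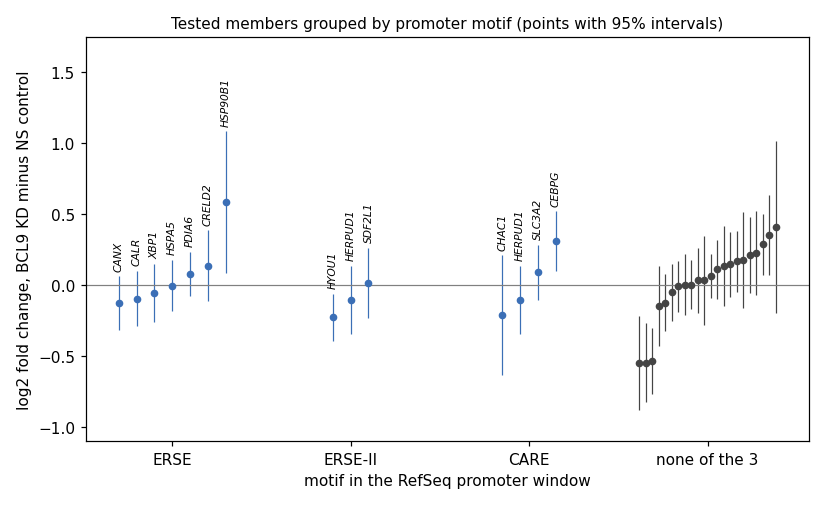
The log2 fold change of tested members (y axis, BCL9 KD minus NS control, with 95% intervals) grouped by the element found in the promoter window. HERPUD1 appears under both ERSE-II and CARE, and the 3 lowest members, DNAJC3, VLDLR and SLC7A5, stand among the 22 with no match in the window.

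Among the 13 ER chaperones and folding enzymes none was called. HSPA5 (BiP), the main HSP70 chaperone of the ER and the usual readout of the unfolded protein response, was at 312, 328 and 318 FPKM in NS control and 294, 334 and 329 FPKM in BCL9 KD. The groups overlapped, with a log2 fold change of −0.005 and a 95% interval of −0.19 to 0.18. Summed over the 13 genes, chaperone expression was 1624 to 1788 FPKM in NS control and 1644 to 1804 FPKM in BCL9 KD, or 0.655% to 0.737% of all reads on genes in any library. The summed level overlapped between the groups.

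The largest differences in this role were those of HSP90B1 and DNAJC3, in opposite directions. HSP90B1 (GRP94, ENSG00000166598, chr12:103930107-103953645), the HSP90 of the ER, was at 130, 195 and 244 FPKM in NS control and 259, 284 and 282 FPKM in BCL9 KD. All 3 BCL9 KD libraries were higher than all NS control libraries, but the NS control values spread widely, and the log2 fold change of 0.58 (SE 0.21) had an adjusted p of 0.134. Without NS control replicate 3 it was 0.79 (adjusted p = 0.042), and without NS control replicate 1 it was 0.34 (adjusted p = 0.117). NS control replicate 1, the library whose values follow GC content, held the lowest HSP90B1 value, and the transcripts of HSP90B1 have 41.3% GC. After the GC correction the log2 fold change was 0.49 (adjusted p = 0.099). HSPA5 to HSP90B1 was 2.40, 1.69 and 1.30 in NS control and 1.14, 1.17 and 1.16 in BCL9 KD as a ratio of FPKM.

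DNAJC3 (P58IPK, ENSG00000102580, chr13:95677139-95794989), a cochaperone of HSPA5 that also restrains PERK, was at 29.8, 41.3 and 39.7 FPKM in NS control and 27.8, 22.9 and 23.9 FPKM in BCL9 KD. The groups did not overlap, although NS control replicate 1 was only just above BCL9 KD replicate 1. The mean was 36.9 ± 6.23 FPKM in NS control and 24.9 ± 2.56 in BCL9 KD (SD, n = 3 each), with a log2 fold change of −0.55 (SE 0.14) and an adjusted p of 0.063. It was called lower without NS control replicate 1 (−0.70, adjusted p = 0.024), with voom on the recovered reads (−0.56, adjusted p = 0.037) and after a correction for GC content (−0.69, adjusted p = 0.013). It was not called in the other 5 fits that left out a library (adjusted p between 0.071 and 0.226), without the trend (0.091), without a filter (0.166) or with a replicate block (0.144).

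The other chaperones differed by less. MANF, a secreted ER stress protein, was at 30.6, 30.4 and 32.9 FPKM in NS control and 33.2, 44.3 and 43.5 FPKM in BCL9 KD. Its log2 fold change of 0.35 (adjusted p = 0.118) rested on replicates 2 and 3 of BCL9 KD, and became 0.48 (adjusted p = 0.030) without BCL9 KD replicate 1. HYOU1, a large HSP70-like chaperone, was at 55.4, 58.2 and 51.9 FPKM in NS control and 45.5, 48.3 and 47.3 FPKM in BCL9 KD, with a log2 fold change of −0.23 (adjusted p = 0.095). MANF and HYOU1 were singled out after their values were seen, since their groups do not overlap. The lectin chaperones CALR and CANX, which hold newly made glycoproteins, had log2 fold changes of −0.10 and −0.13. The disulfide isomerases PDIA4 and PDIA6 had −0.01 and 0.08, and CRELD2, a folding factor induced by ER stress, had 0.13. The HSPA5 cochaperones DNAJB9, DNAJB11 and SDF2L1 had 0.18, 0.13 and 0.01, with adjusted p-values between 0.445 and 0.953.

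None of the 4 ERAD genes was called, and their log2 fold changes were between −0.15 and 0.03. EDEM1, which draws misfolded glycoproteins into degradation, was at 15.1, 20.6 and 18.3 FPKM in NS control and 17.1, 15.9 and 15.2 FPKM in BCL9 KD (−0.15, adjusted p = 0.439). HERPUD1, a small membrane protein of the degradation complex that ER stress induces strongly, was at 5.61, 5.67 and 5.86 FPKM in NS control and 4.57, 5.48 and 5.86 FPKM in BCL9 KD (−0.11, adjusted p = 0.519). Both groups overlapped for both genes. The ubiquitin ligase SYVN1 and its partner SEL1L were at 5.94 ± 0.26 and 13.5 ± 2.42 FPKM in NS control and 5.71 ± 0.44 and 13.7 ± 0.53 FPKM in BCL9 KD (SD, n = 3).

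The sensors and XBP1 were expressed in both groups and none was called. ERN1 (IRE1), the kinase and nuclease that splices XBP1, was the lowest of the 4 at 1.26, 1.60 and 1.43 FPKM in NS control and 1.95, 1.78 and 1.55 FPKM in BCL9 KD, with a log2 fold change of 0.23 (adjusted p = 0.288). EIF2AK3 (PERK) was at 6.15, 7.67 and 6.62 FPKM in NS control and 7.59, 7.21 and 7.92 FPKM in BCL9 KD (0.15, adjusted p = 0.358). For both genes the highest NS control library lay above the lowest BCL9 KD library. ATF6, the sensor that is cut to release a transcription factor, had means of 12.3 and 11.3 FPKM (−0.12, adjusted p = 0.370). XBP1, whose RNA is spliced by IRE1, had means of 26.0 and 24.9 FPKM (−0.06, adjusted p = 0.687). The gene-level values do not separate spliced from unspliced XBP1.

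Of the 9 genes of ATF4 and its regulators and targets, VLDLR was called lower. VLDLR (ENSG00000147852, chr9:2621834-2660053) was at 1.98, 2.29 and 2.22 FPKM in NS control and 1.48, 1.33 and 1.16 FPKM in BCL9 KD. No BCL9 KD library reached the lowest control, with means of 2.16 ± 0.17 and 1.32 ± 0.17 FPKM (SD, n = 3). The log2 fold change was −0.55 (SE 0.12) and the adjusted p was 0.047. The values come from 169 to 433 reads a library. The call was lost in each of the 6 fits that left out a library (adjusted p between 0.051 and 0.198), while the log2 fold change stayed between −0.61 and −0.48. The VLDLR call was also lost without the trend, without a filter and with a replicate block.

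ATF4 and the other direct regulators were not called. ATF4, the transcription factor at the head of this branch, was at 133, 120 and 121 FPKM in NS control and 136, 160 and 162 FPKM in BCL9 KD, with a log2 fold change of 0.29 (adjusted p = 0.103). CEBPG, which pairs with ATF4 on its targets, was at 6.10, 6.60 and 7.49 FPKM in NS control and 8.39, 8.28 and 8.58 FPKM in BCL9 KD (0.31, adjusted p = 0.086), and it was called only without NS control replicate 3 (0.38, adjusted p = 0.038). Neither overlapped between groups, for which they were singled out after their values were seen. DDIT3 (CHOP), the factor of prolonged stress linked to cell death, was at 0.52, 0.66 and 0.42 FPKM in NS control and 0.67, 1.47 and 0.61 FPKM in BCL9 KD. Its log2 fold change of 0.41 (SE 0.26, adjusted p = 0.335) rested on BCL9 KD replicate 2, and the gene had only 8 to 50 reads a library.

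CHAC1, a glutathione-degrading target of ATF4, was as low as DDIT3, with means of 0.66 and 0.50 FPKM from 17 to 39 reads a library (−0.21, adjusted p = 0.463). TRIB3, a pseudokinase that ATF4 and DDIT3 induce and that restrains ATF4, was abundant and nearly equal, at 41.1 ± 5.27 and 41.9 ± 0.86 FPKM. CEBPB, a partner of ATF4, was at 81.9 ± 7.59 and 81.9 ± 5.66 FPKM, and ATF5, a related factor, was at 5.09 ± 0.26 and 5.53 ± 0.44 FPKM (SD, n = 3). PPP1R15A (GADD34), the stress-induced subunit that directs the phosphatase for eIF2alpha, was at 4.68, 5.03 and 4.44 FPKM in NS control and 4.68, 6.12 and 5.90 FPKM in BCL9 KD (0.21, adjusted p = 0.274). At this depth the 95% intervals of DDIT3 (−0.20 to 1.01) and CHAC1 (−0.63 to 0.21) were wide, the first reaching beyond a 1.5-fold rise and the second beyond a 1.5-fold fall.

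None of the 5 tested genes of serine and glycine synthesis was called. PHGDH, the first enzyme of the serine pathway, was at 44.3, 37.6 and 35.8 FPKM in NS control and 42.6, 45.5 and 43.6 FPKM in BCL9 KD (0.17, adjusted p = 0.283). SHMT2, the mitochondrial enzyme that turns serine into glycine, was at 89.2, 74.1 and 72.2 FPKM in NS control and 67.9, 73.6 and 72.1 FPKM in BCL9 KD (−0.13, adjusted p = 0.389). In both genes NS control replicate 1 was the highest of the controls, and the groups overlapped. PSAT1 and PSPH, the next enzymes of the serine pathway, and MTHFD2, a mitochondrial folate enzyme, had log2 fold changes of 0.06, 0.11 and 0.003.

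ASNS, which makes asparagine and is a classic target of ATF4, was at 0.15, 0.26 and 0.18 FPKM in NS control and 0.28, 0.16 and 0.30 FPKM in BCL9 KD, from 12 to 23 reads a library. The annotation behind the deposited table places the whole of ASNS (100% of its span) inside a second gene on the same strand, a processed transcript that was itself at 0.0045 FPKM or lower. A same-strand row also covered 70.5% of DDIT3 and 50.7% of DNAJB11, both listed at 0 FPKM in all libraries. Reads that fall in several genes are left out by the default mode of HTSeq, and the mode used is not given in the sources used here. The levels of these 3 members are therefore uncertain. FAU, a same-strand gene over 5.44% of SYVN1, was at a mean of 42.2 FPKM against 5.83, so reads of SYVN1 in that part are uncertain too. In all, 20 members, ASNS, DDIT3 and DNAJB11 included, had some opposite-strand gene within their span. In 5 members a partner was above the member itself on the FPKM scale. These were MRPL49 over 40.7% of SYVN1, at a mean of 15.5 against 5.83, NUP62 over 20.3% of ATF5, at 18.8 against 5.31, MARS over 25.0% of DDIT3, at 26.6 against 0.72, THAP5 over 3.46% of DNAJB9, at 3.72 against 3.46, and a processed pseudogene over 0.602% of ASNS, at 1.32 against 0.22. VLDLR-AS1, over 56.3% of VLDLR, was at 0.047 FPKM or lower, and CTC-326K19.6, over 100% of ATF5, was listed at 0. Use of strand in the counting is not stated, and without it reads of such partners cannot be told apart.

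The amino acid transport pair was split. SLC7A5 (ENSG00000103257, chr16:87830023-87869488) was at 181, 169 and 142 FPKM in NS control and 112, 114 and 111 FPKM in BCL9 KD. The BCL9 KD libraries lay close together and below every NS control library, with means of 164 ± 20.0 and 112 ± 1.26 FPKM (SD, n = 3). The mean fell by 31.6%, and the log2 fold change was −0.54 (SE 0.098, 95% interval −0.77 to −0.31, adjusted p = 0.034). SLC3A2, the heavy chain that carries SLC7A5 to the cell surface, was at 31.5, 29.6 and 29.0 FPKM in NS control and 29.1, 33.8 and 33.4 FPKM in BCL9 KD (0.09, adjusted p = 0.495). The ratio of SLC7A5 to SLC3A2 in FPKM was 5.75, 5.70 and 4.89 in NS control and 3.84, 3.36 and 3.32 in BCL9 KD, and the groups did not overlap. The direction of SLC7A5 was the same in every fit tried, but its call was lost in 4 of the 6 fits that left out a library (BCL9 KD replicates 1, 2 or 3, or NS control replicate 2, adjusted p between 0.056 and 0.162) and with median-of-ratios scaling (adjusted p = 0.051). The SLC7A5 call was also lost without the trend, without a filter and with a replicate block.

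**Figure D4:**
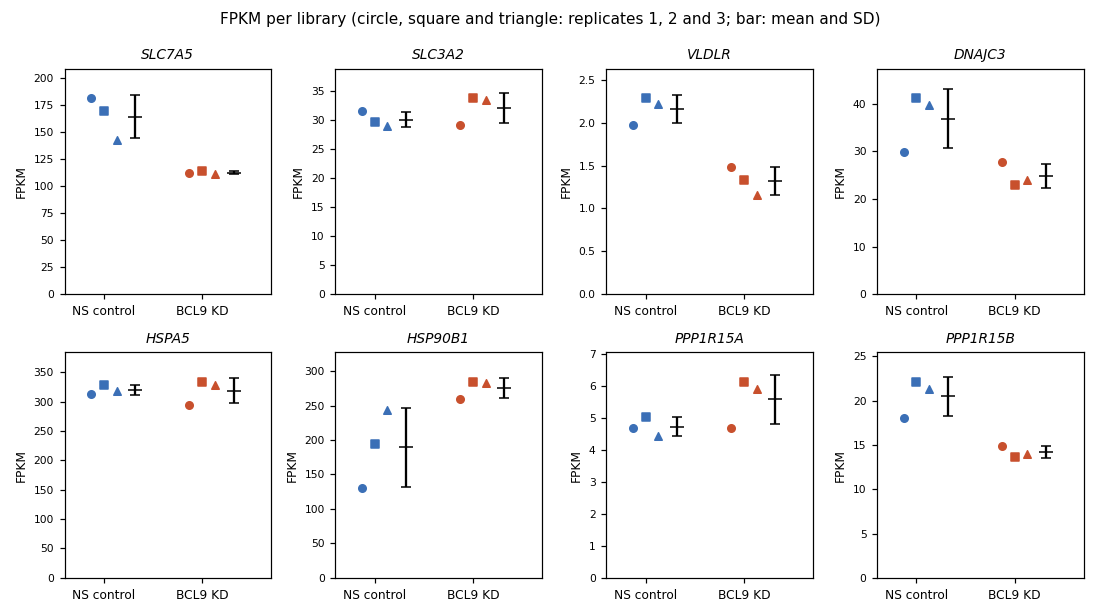
FPKM per library, on axes from 0, of 8 genes in the 3 NS control and 3 BCL9 KD cultures, with mean and SD. SLC7A5, VLDLR, DNAJC3 and PPP1R15B are lower in all 3 BCL9 KD libraries, HSP90B1 is higher in all 3, and SLC3A2, HSPA5 and PPP1R15A overlap.

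The calls among members depended on how the GC content of transcripts was treated. NS control replicate 1 was below both other NS control libraries in 11 of the 12 members with transcripts under 45% GC, and above both in 12 of the 25 members of 45% GC or more. After a loess correction of each library for GC content, 5 of 37 members were called, against 10.7% of all tested genes. Without NS control replicate 1, 2 members were called, DNAJC3 and SLC7A5 (−0.46, adjusted p = 0.045), both lower, against 4.98% of all tested genes, and VLDLR was at −0.60 (adjusted p = 0.051). With the GC correction ATF4 (0.38, adjusted p = 0.027) and PHGDH (0.26, adjusted p = 0.023) were higher, and DNAJC3, SLC7A5 (−0.45, adjusted p = 0.013) and VLDLR (−0.56, adjusted p = 0.029) lower. With voom on the recovered reads, DNAJC3, SLC7A5 and VLDLR were lower and none was higher, against 10.2% of all tested genes called. BCL9 KD replicate 1 was the lowest of its group for 23 of the 37 members, against 37.8% of all tested genes, and the part of either library in these differences was not tested.

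**Figure D5:**
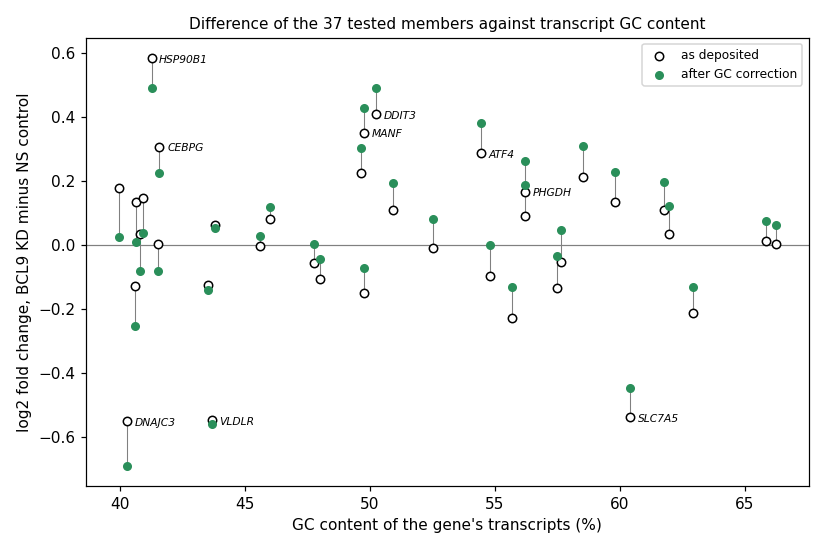
The log2 fold change (BCL9 KD minus NS control) of the 37 tested members against the GC content of their transcripts in percent, as deposited (open) and after GC correction (filled). HSP90B1, DNAJC3 and CEBPG, with transcripts of 40.3% to 41.6% GC, move down on correction, and ATF4 and SLC7A5 move up.

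The wider pathway was read from 89 further genes in 7 lists, of which 84 were tested, 1 was called higher and 4 were called lower (5.95%, beside the 5.87% of all genes). With GC correction 9 of the 84 were called, beside 10.7% of all genes, and with voom 10, beside 10.2%. The median log2 fold change of the 84 was 0.007. No gene was called among the 9 tested ERAD genes, the 12 cytosolic aminoacyl-tRNA synthetases, which ATF4 induces, or the 5 tested genes of serine and one-carbon metabolism. In the last list MTHFD2L (0.51, adjusted p = 0.099) was called higher with voom (0.65, adjusted p = 0.045) but not with GC correction (adjusted p = 0.054). Of 16 ER folding and secretion genes, TXNDC5, a disulfide isomerase, was lower, at 2.20, 2.70 and 2.49 FPKM in NS control and 1.16, 1.12 and 1.50 FPKM in BCL9 KD (−0.76, adjusted p = 0.031). Its call was lost without any of the BCL9 KD replicates or without NS control replicate 2 (adjusted p between 0.056 and 0.153). A read-through gene, BLOC1S5-TXNDC5, listed at 0, covers all but a trace of TXNDC5 (99.98% of its span), so its level is uncertain in the same way as that of ASNS.

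In the signalling list, 2 of 10 genes were called, both lower, beside 2.91% of all tested genes called lower. PPP1R15B (CReP), the constitutive counterpart of PPP1R15A in dephosphorylating eIF2alpha, was at 18.0, 22.1 and 21.3 FPKM in NS control and 14.9, 13.6 and 14.0 FPKM in BCL9 KD (−0.51, adjusted p = 0.034). Without BCL9 KD replicate 2 or 3 or NS control replicate 2 its adjusted p was between 0.145 and 0.170. An antisense gene, RP11-739N20.2, covers 100% of PPP1R15B and was at 0.81 FPKM or lower, and use of strand in the counting is not stated. The ratio of PPP1R15A to PPP1R15B was 0.260, 0.227 and 0.208 in NS control and 0.314, 0.450 and 0.421 in BCL9 KD. WFS1, an ER membrane protein that restrains ATF6, was at 8.17, 8.02 and 6.90 FPKM in NS control and 5.79, 5.71 and 5.57 FPKM in BCL9 KD (−0.40, adjusted p = 0.047). The WFS1 call was lost in 5 of the 6 fits that left out a library, all except NS control replicate 3 (adjusted p between 0.061 and 0.200), with GC correction (0.051) and with median-of-ratios scaling (0.061). Of 20 tested further ATF4 targets, TNFRSF10B, a death receptor that DDIT3 induces, was at 37.1, 40.2 and 37.5 FPKM in NS control and 29.7, 30.1 and 29.2 FPKM in BCL9 KD (−0.36, adjusted p = 0.032). It was not called with GC correction (−0.27, adjusted p = 0.063) or without BCL9 KD replicate 2 or 3 or NS control replicate 2 (adjusted p between 0.145 and 0.172).

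Among 12 heat shock genes of the cytosol and mitochondria, which answer largely to HSF1, HSPB1 was called higher. HSPB1 (HSP27), a small heat shock protein, was at 51.9, 39.8 and 39.8 FPKM in NS control and 65.4, 78.6 and 78.4 FPKM in BCL9 KD (0.76, adjusted p = 0.030). Its groups did not overlap, and NS control replicate 1 was the highest of the controls. The call was lost with median-of-ratios scaling (adjusted p = 0.053) and without BCL9 KD replicate 2 or 3 or NS control replicate 2 (adjusted p between 0.133 and 0.153). The 12 heat shock genes had a median log2 fold change of 0.01.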

How the data were processed

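RNA sequencing of 3 NS control and 3 BCL9 KD cultures was used. Per the labels and methods, the authors aligned paired-end reads to hg38 with STAR after CASAVA, counted them per gene with HTSeq 0.6.1 and deposited FPKM. The methods also name Tophat, for parsing the alignments, and Cufflink, without a step. The methods name 2 replicates per condition, and 3 were deposited. FPKM times gene length gave whole multiples of 1 step in each library (100% of values within 0.1), so reads per gene were recovered. Reads without molecular identifiers are not independent, so read numbers give counting error only.

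BCL9 KD was compared with NS control by limma 3.58.1 (R 4.3.3) on log2(FPKM + 0.5), its empirical Bayes step fitted with a trend, over the 13745 genes whose mean over all libraries was 0.5 FPKM or more, and p-values were adjusted by Benjamini-Hochberg over all of them. Fold changes are on that scale, which understates changes of low genes. The values are FPKM, so no count model was the main test. A two-sided exact permutation test was added for single genes. The methods were tested on simulated data. Alternatives were other added values, filters, scalings and GC correction (loess span 0.3, transcripts of GRCh37 annotation, known for 98.8% of tested genes), voom, no trend, a replicate block and leaving out each library. Python 3.11.15, pandas 2.3.3 and scipy 1.17.1 were also used.

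The members and lists were chosen with earlier results of these data known. Values in every library are given for called members and for the 2 members with the largest change in each role. Of the further lists every called gene is named. MANF, HYOU1, HSPA5, ATF4, CEBPG, PPP1R15A, ASNS and the ratios are not set by this rule and were picked with their values in view. Of 92 further symbols listed, 3 were not found under that symbol. No sample was left out.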

Additional observations from a re-analysis of the deposited data

How the results depend on the processing

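The genes called among all tested were 807 in the comparison reported and 1475 with GC correction, 398 with GC correction and a replicate block, 332 without the trend, 536 with median-of-ratios scaling, 142 without a filter, 1400 with voom and 5 to 1729 when a library was left out. A replicate block on the labels' numbers left 0 called by limma (3235 at an unadjusted p under 0.05), with 0 members lower. Deviations of same-numbered samples correlated at −0.147, −0.088 and −0.003, but so few values cannot show whether the numbers pair the cultures. Members called higher were 0 in the comparison reported, 2 with GC correction and 0 to 2 when a library was left out. Members called lower were 2, against 0 without the trend, 0 without a filter and 0 to 2 when a library was left out. SLC7A5 lost its call without the trend (adjusted p = 0.056), without a filter (0.095), with the block (0.092) and with median-of-ratios scaling, and VLDLR without the trend (0.051), without a filter (0.125) and with the block (0.126). With the block and GC correction together, SLC7A5 (0.044) and DNAJC3 (0.047) were called lower and VLDLR (0.087) was not. The 5 further genes called kept their direction in every fit, and none was called with the block alone (adjusted p between 0.093 and 0.111), nor was BCL9 (0.066). With the block and GC correction together, HSPB1 (0.82) and BCL9 (−0.90) were called, both at an adjusted p of 0.036. None of the 5 was called without a filter (0.060 to 0.101), and without the trend TXNDC5 (0.037) was the one call among them. HYOU1 was called with quantile normalization (−0.27, adjusted p = 0.048) and DNAJC3 with median-of-ratios scaling (adjusted p = 0.045).

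The sign changed for 10 members, each with a log2 fold change of at most 0.08 in size as reported and with no call under any of these settings. With GC correction, with or without the block, the values were 0.026 for HSPA5, −0.081 for MTHFD2, 0.081 for PDIA4, −0.081 for SEL1L, 0.045 for SYVN1 and 0.0011 for XBP1. With median-of-ratios scaling they were −0.042 for CEBPB, −0.041 for MTHFD2, −0.032 for SDF2L1, −0.0086 for SEL1L and −0.010 for TRIB3. With quantile normalization they were −0.064 for CEBPB, −0.032 for MTHFD2, −0.034 for PDIA6, −0.023 for SDF2L1 and −0.00097 for TRIB3. Leaving out a library gave −0.038 to 0.077 for CEBPB, −0.039 to 0.053 for HSPA5, −0.040 to 0.046 for MTHFD2, −0.049 to 0.046 for PDIA4, −0.050 to 0.11 for SDF2L1, −0.12 to 0.12 for SEL1L, −0.089 to 0.0073 for SYVN1, −0.023 to 0.14 for TRIB3 and −0.12 to 0.011 for XBP1. The cause of these differences was not tested. DDIT3, CHAC1 and ASNS had the fewest reads of the members, with 50 or fewer in any library. Those of DDIT3 and ASNS may also be lowered by the same-strand overlap described above.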

Other observations

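Among the 84 tested genes of the further lists, 31 (36.9%) had no overlap between the groups, beside 34.2% of all tested genes, and most of these were not called. Of the 20 tested further ATF4 targets, 3 were higher and 4 lower without overlap, and the median log2 fold change of the 20 was −0.01. The ATF4 targets PCK2, GDF15 and NUPR1, chosen after their values were seen, were at higher values in all BCL9 KD libraries than in any control, with adjusted p-values just above the threshold. All 3 were called higher with GC correction (adjusted p of 0.015 for PCK2, 0.021 for GDF15 and 0.035 for NUPR1), and PCK2 (0.044) and NUPR1 (0.039) with voom. None of the 3 was called with median-of-ratios scaling (adjusted p between 0.098 and 0.135), quantile normalization (0.072 to 0.139) or a replicate block (0.107 to 0.154), and each was called in 1 of the 6 fits that left out a library, with adjusted p-values of up to 0.242 in the others. PCK2, the mitochondrial enzyme that makes phosphoenolpyruvate, was at 5.33, 4.33 and 4.05 FPKM in NS control and 6.79, 6.18 and 6.17 FPKM in BCL9 KD (0.45, adjusted p = 0.061 with limma). GDF15, a stress cytokine, was at 14.1, 12.5 and 12.6 FPKM in NS control and 15.3, 17.2 and 17.8 FPKM in BCL9 KD (0.35, adjusted p = 0.062). NUPR1, a small stress-induced nuclear protein, was at 2.35, 1.94 and 2.32 FPKM in NS control and 2.77, 3.89 and 3.47 FPKM in BCL9 KD (0.51, adjusted p = 0.069). The 4 lower ones were TNFRSF10B, which was called, the amino acid transporters SLC1A4 (−0.28, adjusted p = 0.260) and SLC1A5 (−0.21, adjusted p = 0.099), and JDP2, a repressor of the AP-1 family (−0.19, adjusted p = 0.394).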
